A study of Mus musculus with 12 samples.

Results

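The LIF, Stat3 and Pim genes described here are 7 genes of mouse embryonic stem (ES) cells: the receptor subunits Lifr and Il6st, the transcription factor Stat3, its feedback inhibitor Socs3, and the serine/threonine kinases Pim1, Pim2 and Pim3. Every array probe annotated with one of these symbols was taken, which gave 12 of the 46133 probes and 7 of the 17658 annotated genes. Lifr and Il6st have 2 probes each, Stat3 has 2, Pim2 has 3, and Socs3, Pim1 and Pim3 have 1 each. The set was put together with results of these same arrays known, so the values of the 7 genes are given as a description, with no p-value. Where it is said that one of them passed the threshold used for all probes, this too is a description and supports nothing.

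mRNA was measured on 12 one-colour Illumina bead arrays, 1 per culture of E14 cells, a mouse ES line grown here without feeder cells on gelatin. All 12 cultures received 2 µg of a pSUPER puro plasmid expressing a short hairpin RNA. The hairpin targeted Jmjd1a (now Kdm3a) in 3 cultures, Jmjd2c (now Kdm4c) in 3, and firefly luciferase (Luc), which mouse cells do not carry, in 6. Both targets are Jumonji enzymes that remove methyl groups from histone H3, at lysine 9. The labels call the cultures of a group biological replicates, and name 1 hairpin per target. LIF in the medium and the length of puromycin selection are spelled out for the Luc cultures. The text for the knockdown cultures, as used here, breaks off before both.

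Leukaemia inhibitory factor (LIF) binds Lifr, which pairs with Il6st (gp130), and Jak kinases bound to these receptors then phosphorylate Stat3. Phosphorylated Stat3 enters the nucleus and activates genes that help keep mouse ES cells self-renewing, Socs3 among them. The Socs3 protein binds the receptor and Jak and damps the signal, and Socs3 mRNA is often used as an indirect read-out of Stat3 activity. The Pim kinases are also Stat3 targets in many cytokine-responsive cells. They have no regulatory domain that switches them on, so their activity largely follows the amount of protein made. Arrays measure mRNA and not phosphorylated Stat3, kinase activity or protein.

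The promoter windows of Socs3 and Pim2 are shown because Socs3 and Pim2 had the largest differences among the well-measured members. Both are the 250 bases before the RefSeq start, from the GRCm38.p6 build. Capitals in the Socs3 window, at chr11:117969367-117969616 on the minus strand, mark a match to TTCNNNGAA, the palindromic core that Stat proteins bind. Capitals in the Pim2 window, at chrX:7878056-7878305 on the plus strand, mark matches to the octamer ATGCAAAT or its reverse complement, the core that Oct (POU) proteins bind.
Socs3: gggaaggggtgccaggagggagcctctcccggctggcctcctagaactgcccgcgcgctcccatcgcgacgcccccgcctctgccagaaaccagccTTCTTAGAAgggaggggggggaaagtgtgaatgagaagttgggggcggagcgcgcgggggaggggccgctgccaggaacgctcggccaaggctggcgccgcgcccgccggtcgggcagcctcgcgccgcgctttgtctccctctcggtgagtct
Pim2: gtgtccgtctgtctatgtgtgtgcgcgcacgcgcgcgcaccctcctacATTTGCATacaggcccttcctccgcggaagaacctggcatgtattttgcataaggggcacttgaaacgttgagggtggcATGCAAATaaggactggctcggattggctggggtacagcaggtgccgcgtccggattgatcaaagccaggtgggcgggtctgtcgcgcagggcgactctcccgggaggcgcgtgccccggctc
All 7 genes have a window in that table, 9 windows in all. The Stat core lay in 1 of the 9, that of Socs3, 154 to 146 bases before the start, and in 7.02% of all 32851 windows of this length. The octamer lay in 1 of the 9, that of Pim2, at 202 to 195 and at 123 to 116 bases before the start, and in 1.60% of all windows. Both motifs were searched on both strands, they do not overlap in these windows, and the octamer search was added after the Pim2 window had been read. A match is a run of letters, and no binding was measured here.

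The Luc arrays fell into 2 sets, as correlations over the 15853 tested probes show, with values under 32 set to 32. Arrays of 1 group and set correlated at 0.995 to 0.997, whereas Luc 1-3 and Luc 4-6 correlated at 0.962 to 0.964. The labels do not name these sets. Jmjd1a was compared with Luc replicates 1-3, Jmjd2c with Luc replicates 4-6, and the Luc arrays of both sets with each other. Which knockdown goes with which Luc set was fixed beforehand, and the correlations given here do not show it. The knockdowns share no control array in this scheme. What separates the sets, be it a batch or the state of the cultures, cannot be told apart. Mean intensity was 236 to 245 per array, 13591 to 14996 probes of an array exceeded 32, and 35.0 to 36.8% of values lay below 0. The number of arrays limits the precision.

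The targeted genes were low in their own knockdown. The Kdm3a probes fell to 31.9 and 37.8% of Luc 1-3 with the Jmjd1a hairpin (limma, adjusted p = 1.90e-08 and 6.08e-08), and the Kdm4c probe fell to 38.3% of Luc 4-6 with the Jmjd2c hairpin (adjusted p = 3.16e-08). Of 8 ES cell markers 7 were above 32 on every array, while Dppa5a was not above 32 on any. The fibroblast and feeder markers Col1a1, Col1a2, Col3a1, Lum and Postn, of 8 on that list, were not above 32 on any array, and 1 to 3 of the 8 were above 32 on each array.

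Within their own sets the knockdowns shared lower Socs3, lower Pim3 and higher Pim2 mRNA, the last with Jmjd2c on only 1 of the 3 Pim2 probes. The Pim2 folds given here are those of its brightest probe. The Stat3 level was below that of the controls with Jmjd1a and overlapped it with Jmjd2c, while Il6st and Pim1 read near background. Jmjd1a arrays had Pim2 at 2.73-fold the Luc 1-3 level, Socs3 at 69.6%, and Stat3 at 85.5 and 83.4% on its probes. Jmjd2c arrays had Pim2 at 1.62-fold the Luc 4-6 level, Socs3 at 69.3% and Pim3 at 77.2%, with Stat3 at 101 and 98.4%. On the brightest Pim2 probe the Luc sets were further apart than either knockdown was from its controls, since Luc 4-6 had 29.1% of the Luc 1-3 level. In these bulk samples, fewer cells that express a gene and less RNA per cell cannot be told apart.

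**Figure D1:**
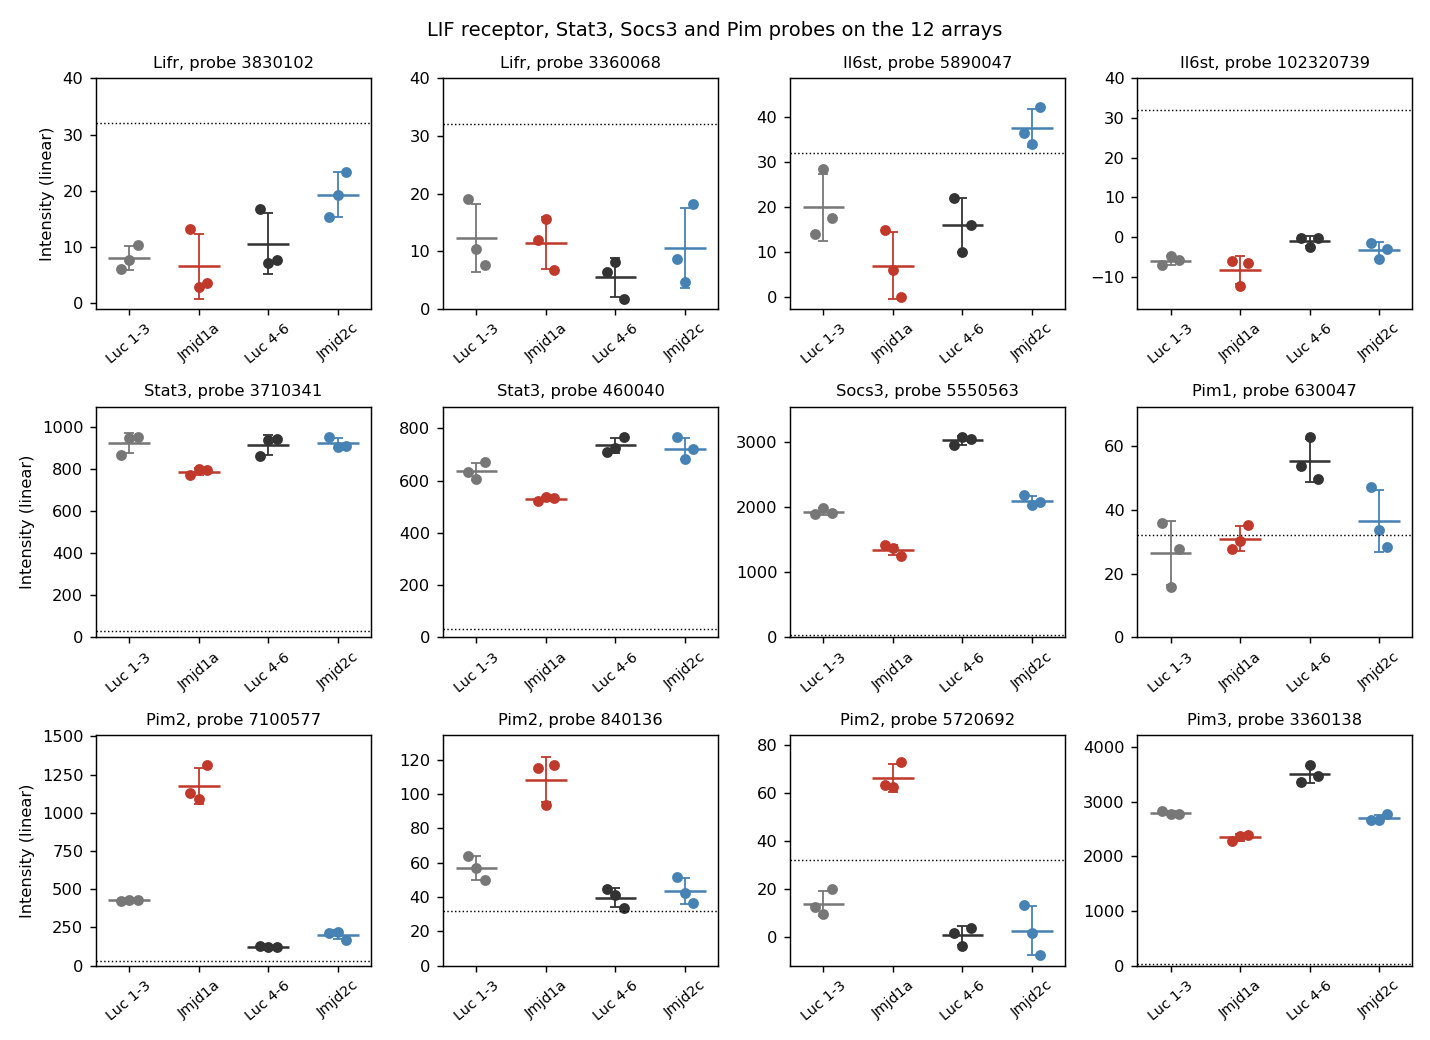
Intensity (linear scale, arbitrary units) of the 12 probes on the 12 arrays, 3 per group, with 1 panel per probe and its own axis. Points are arrays, horizontal bars are means, error bars are SD (n = 3) and the dotted line is the floor of 32. On Pim2 probe 7100577 the Jmjd1a arrays lie between 1088.0 and 1309.7, above all others, and on Socs3 they lie between 1252.4 and 1406.6, below all others.

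The receptor genes were hardly measured. Lifr, the subunit that binds LIF itself, read 2.8 to 23.3 on probe 3830102 and 1.7 to 19.0 on probe 3360068 over the 12 arrays. No Lifr value reached 32, so neither probe was tested and Lifr has no difference here. The low reading is that of these probes, and levels cannot be compared between probes.

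Il6st, the signal-transducing subunit shared by the interleukin-6 family of receptors, gave a signal on 1 of its 2 probes. Probe 102320739 was below 0 on every array, from -12.4 to -0.3. Probe 5890047 read 36.5, 33.9 and 42.2 on the Jmjd2c arrays, and 21.9, 9.9 and 15.9 on Luc 4-6. It read 14.0, 28.3 and 17.5 on Luc 1-3, and 14.8, 6.0 and 0.0 on the Jmjd1a arrays. Only the Jmjd2c arrays were above 32, and the probe entered the test through them alone. With the other groups at the floor, the Jmjd2c level was at least 1.17-fold that of Luc 4-6 (0.22 ± 0.07 log2, SE, 3 arrays against 3). That value was 1.07 with a floor of 16 and 0 with a floor of 64. Leaving out Luc replicate 4, 5 or 6 or Jmjd2c replicate 3 brought it below the threshold, at 0.14 without Jmjd2c replicate 3 and 0.22 without any one of the Luc arrays.

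Stat3, the transcription factor of the pathway, was measured well above background by both probes. Probe 3710341 read 867.9, 946.2 and 952.6 on Luc 1-3 and 769.6, 799.9 and 795.2 on the Jmjd1a arrays. On the same probe Luc 4-6 read 860.1, 936.6 and 945.4, and Jmjd2c 953.0, 906.6 and 911.9. The Jmjd1a arrays were below every other array, and the other groups overlapped. Probe 460040 read 632.5, 604.7 and 670.1 on Luc 1-3 and 521.4, 536.6 and 531.7 on the Jmjd1a arrays. Its values were 710.6, 725.2 and 767.0 on Luc 4-6 and 765.4, 681.5 and 721.1 on Jmjd2c. Here too the Jmjd1a arrays were lowest, Luc 1-3 came next, and Luc 4-6 and Jmjd2c overlapped at the top.

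The log2 difference of Jmjd1a from Luc 1-3 was -0.23 ± 0.06 (SE) on the first Stat3 probe and -0.26 ± 0.06 on the second. For Jmjd2c against Luc 4-6 it was 0.02 ± 0.06 and -0.02 ± 0.06. The change with Jmjd1a minus that with Jmjd2c was -0.24 ± 0.08 and -0.24 ± 0.09, the same on both probes. The first probe passed the threshold in the Jmjd1a comparison with all arrays, and did not when Luc replicate 2, Luc replicate 3 or Jmjd1a replicate 1 was left out (-0.21, -0.20 and -0.21). Between the Luc sets the probes disagreed, at -0.01 ± 0.06 and 0.21 ± 0.06, and the second was not past the threshold without Luc replicate 2.

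Socs3 differed by nearly the same factor in both knockdowns, from control levels that were far apart. Its probe 5550563 read 1894.9, 1981.2 and 1899.9 on Luc 1-3 and 1406.6, 1364.8 and 1252.4 on the Jmjd1a arrays. It read 2942.4, 3070.7 and 3044.0 on Luc 4-6 and 2177.9, 2024.6 and 2078.2 on the Jmjd2c arrays. Neither knockdown overlapped its controls. In order of level Luc 4-6 came first (3019.0 ± 67.7, SD, n = 3), then Jmjd2c (2093.6 ± 77.8), Luc 1-3 (1925.3 ± 48.4) and Jmjd1a (1341.3 ± 79.7), and no neighbours in that order overlapped. The gap between Jmjd2c and Luc 1-3 was the smallest, with 2024.6 the lowest of the one and 1981.2 the highest of the other.

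On the log2 scale Socs3 was at -0.52 ± 0.06 with Jmjd1a and -0.53 ± 0.06 with Jmjd2c, and these changes differed by 0.01 ± 0.08. The Luc sets differed by 0.65 ± 0.06, more than either knockdown did from its controls. Leaving out 1 array at a time gave -0.56 to -0.47 with Jmjd1a and -0.56 to -0.50 with Jmjd2c. Against all 6 Luc arrays, the controls that the series design names, Socs3 was at -0.85 with Jmjd1a and -0.20 with Jmjd2c. The similar size of the Socs3 differences thus depends on the choice of controls.

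Pim1, the kinase first found as a viral insertion site in mouse lymphomas, was near background. Its probe 630047 read 35.8, 15.8 and 27.8 on Luc 1-3, and 27.6, 30.2 and 35.2 on the Jmjd1a arrays. It read 53.9, 62.9 and 49.7 on Luc 4-6, and 47.3, 33.8 and 28.3 on the Jmjd2c arrays. Luc 4-6 was the only group with all arrays above 32, and every other array was below it. The log2 difference was -0.01 ± 0.13 with Jmjd1a, -0.57 ± 0.13 with Jmjd2c and 0.73 ± 0.13 between the Luc sets. The difference between the Luc sets was 1.13 with a floor of 16 and 0 with a floor of 64, and that with Jmjd2c was also 0 with a floor of 64. Against all 6 Luc arrays the values were -0.37 with Jmjd1a and -0.21 with Jmjd2c, so which knockdown had the lower Pim1 value depends on the controls.

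Pim2, an X-linked kinase that promotes survival and protein synthesis, spanned more on the log2 scale than the other probes above 32 on every array. Probe 7100577 read 422.5, 432.7 and 429.8 on Luc 1-3 and 1126.1, 1088.0 and 1309.7 on the Jmjd1a arrays. It read 130.3, 123.7 and 120.2 on Luc 4-6 and 216.9, 221.4 and 170.5 on the Jmjd2c arrays. The 4 groups did not overlap, and their order was Jmjd1a, Luc 1-3, Jmjd2c, Luc 4-6. The Jmjd2c arrays, though above their own controls, were all below Luc 1-3. Replicates of Luc lay close together (428.3 ± 5.26 and 124.7 ± 5.13, SD, n = 3), and those of the knockdowns spread more (1174.6 ± 119 and 202.9 ± 28.2).

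With Jmjd1a this Pim2 probe was 1.45 ± 0.10 log2 above Luc 1-3, which placed it 32nd from the top among 15853 tested probes. With Jmjd2c it was 0.69 ± 0.10 above Luc 4-6, 365th from the top. Luc 4-6 was at -1.78 ± 0.10 relative to Luc 1-3, 36th from the bottom. The change with Jmjd1a exceeded that with Jmjd2c by 0.76 ± 0.14. Leaving out 1 array at a time gave 1.37 to 1.50 with Jmjd1a and 0.63 to 0.81 with Jmjd2c. Against all 6 Luc arrays the Jmjd1a value was 2.34 and the Jmjd2c value turned to -0.20, so the direction of the Jmjd2c difference holds within its set only.

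The other Pim2 probes were dimmer. Probe 840136 read 64, 57.2 and 50.0 on Luc 1-3, and 115.0, 93.5 and 116.7 on the Jmjd1a arrays. It read 44.4, 41.1 and 33.5 on Luc 4-6, and 51.5, 42.2 and 36.4 on the Jmjd2c arrays. The Jmjd1a arrays again stood above all others, while Jmjd2c overlapped Luc 4-6. The log2 difference was 0.93 ± 0.15 with Jmjd1a, 0.12 ± 0.15 with Jmjd2c and -0.53 ± 0.15 between the Luc sets.

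Probe 5720692 read 63.1, 62.6 and 72.9 on the Jmjd1a arrays and no more than 20.0 on any other array. It entered the test through the Jmjd1a arrays alone. With Luc 1-3 at the floor, the Jmjd1a level was at least 2.06-fold higher (1.05 ± 0.06 log2), a value of 1.94 with a floor of 16 and 0.06 with a floor of 64. On Pim2 probe 7100577 every Jmjd1a array was above every Luc 1-3 array, and every Jmjd2c array above every Luc 4-6 array. Probe 840136 was also higher on every Jmjd1a array than on every Luc 1-3 array, and overlapped between Jmjd2c and Luc 4-6. Of all 15853 tested probes, 4040 passed the threshold with Jmjd1a and 6176 with Jmjd2c. How many of them separate without overlap was not counted, and nothing is read from this.

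Pim3, the third kinase of the family, ran opposite to Pim2. Its probe 3360138 read 2829.7, 2772.7 and 2779.9 on Luc 1-3, and 2281.1, 2367.9 and 2397.8 on the Jmjd1a arrays. It read 3368.9, 3664.1 and 3466.4 on Luc 4-6, and 2665.9, 2669.4 and 2770.8 on the Jmjd2c arrays. Both knockdowns were below their own controls with no overlap. In order of level the groups were Luc 4-6, Luc 1-3, Jmjd2c and Jmjd1a, and the middle pair nearly touched, at 2772.7 and 2770.8.

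The Pim3 log2 difference was -0.25 ± 0.05 with Jmjd1a, -0.37 ± 0.05 with Jmjd2c and 0.32 ± 0.05 between the Luc sets. The changes with the hairpins differed by 0.12 ± 0.07. Leaving out 1 array at a time gave -0.27 to -0.23 and -0.40 to -0.34. Against all 6 Luc arrays the values were -0.41 and -0.21. On all 6 knockdown arrays, Pim2 probe 7100577 was higher and Pim3 and Socs3 were lower than on every Luc array of the same set. The genes were chosen with results of these arrays known. The share of all tested probes that separate in this way in both sets was not counted, so nothing is read from it.

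**Figure D2:**
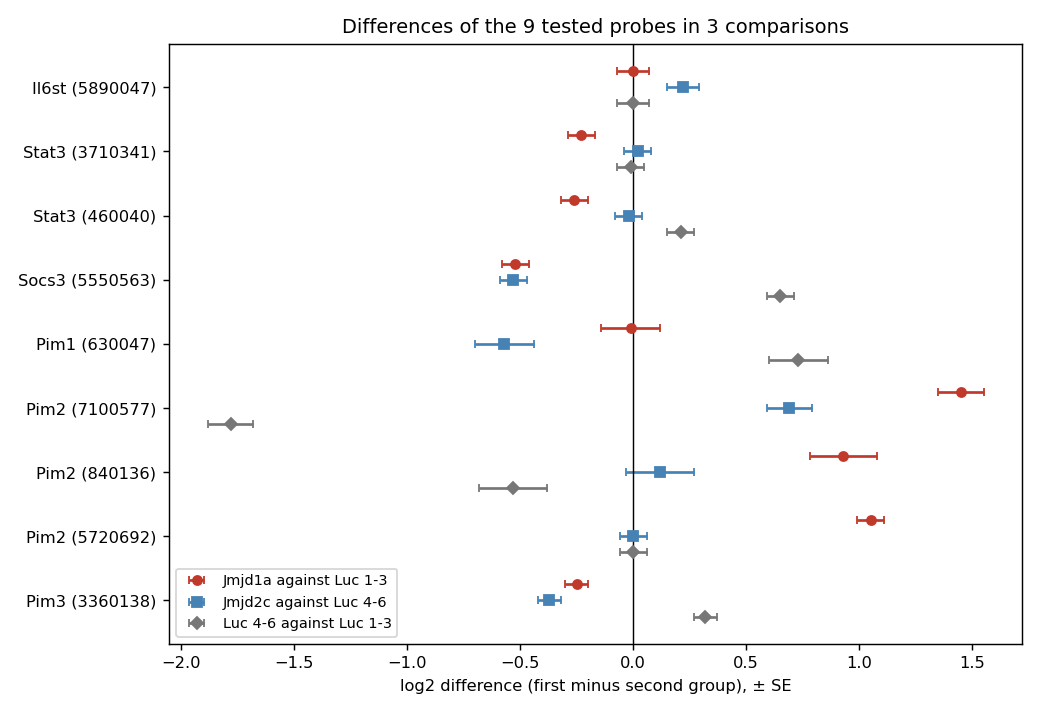
log2 difference (x axis, first minus second group, ± SE, 3 arrays against 3) of the 9 tested probes, with 1 row per probe and 1 symbol per comparison. Pim2 probe 7100577 reaches 1.45 with Jmjd1a and -1.78 between the Luc sets, and Socs3 lies at -0.52 and -0.53 in the knockdowns. Values of Il6st and of Pim2 probe 5720692 at 0 come from groups at the floor.

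Counted by gene, with the brightest tested probe standing for each, 6 of the 7 genes were tested. In the Jmjd1a comparison 1 was called higher (Pim2) and 3 lower (Pim3, Socs3, Stat3), where 14.5% of the 9233 tested genes were called higher and 13.6% lower. In the Jmjd2c comparison 2 were called higher (Il6st, Pim2) and 3 lower (Pim1, Pim3, Socs3), against 22.7% and 19.7% of all genes. Between the Luc sets 3 were higher in Luc 4-6 (Pim1, Pim3, Socs3) and 1 lower (Pim2), against 40.3% and 21.6%. The genes were chosen from such values, so nothing is read from these counts. Median log2 differences over the 6 were -0.12, -0.18 and 0.16, beside 0, 0.02 and 0.11 over all tested genes. With quantile normalization the last median over all genes was 0, and between the Luc sets Pim2 was at -1.98, Socs3 at 0.74, Pim3 at 0.44 and the second Stat3 probe at 0.13.

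Summed intensities of marker genes of other cell types differed between the same groups. The brightest genes of a list weigh most in such a sum, so a list need not have moved as a whole. The summed intensity of 6 primitive endoderm markers was 1445 to 1493 on Luc 1-3, 648 to 775 on Jmjd1a, 701 to 730 on Luc 4-6 and 2205 to 2471 on Jmjd2c, with Sox7 not above 32 anywhere. The sum of 6 trophectoderm markers was 406 to 420, 772 to 792, 467 to 587 and 1268 to 1288 in the same order, with Elf5 and Hand1 not above 32 anywhere. The sum of 6 neural and epiblast markers was 1054 to 1104, 1380 to 1454, 643 to 715 and 818 to 869, with Sox1 not above 32 anywhere. This last sum had the same order of groups as Pim2. The sum of the 8 fibroblast and feeder markers was 165 to 184, 130 to 136, 221 to 252 and 115 to 174, lower in each knockdown than in its Luc set, as Socs3 and Pim3 were. The 8 ES cell markers summed to 21419 to 22525, 19045 to 19446, 21952 to 22204 and 18633 to 19571. Their sum, far brighter than that of the feeder markers, was likewise lower in each knockdown than in its Luc set. The part of any of these in the values of the 7 genes was not tested.

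The rest of the pathway was followed through 4 lists from general knowledge with 84 entries, of which 79 were on the array and 61 were tested. The lists were written with earlier results of these data known, so their counts are a description and not an independent test. With the Jmjd1a hairpin 6 rose, 20 fell and 35 did not pass the threshold, where 14.5% of all tested genes rose and 13.6% fell. With the Jmjd2c hairpin 16 rose, 16 fell and 29 did not pass, beside 22.7% and 19.7% of all genes. Between the Luc sets 28 were higher in Luc 4-6, 10 were lower and 23 did not pass, beside 40.3% and 21.6%. Set against all 6 Luc arrays, 18 of the 61 were called with Jmjd1a and 11 with Jmjd2c. That fit has 1 Luc mean, so the gap between the Luc sets counts as spread, and a lost call need not mean a smaller difference. Adjusted p-values are limma's, over all tested probes. Of the 15 tested receptors, ligands, Jak kinases and other Stats, 0 rose and 4 fell with Jmjd1a, and 1 rose and 4 fell with Jmjd2c. Medians were -0.06 in both, beside 0 and 0.02 over all genes.

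Jak1, the main Jak kinase of gp130 receptors, was at 216.0 ± 23.4 on Jmjd1a against 225.7 ± 21.5 on Luc 1-3 (SD, n = 3), and at 384.7 ± 21.5 on Jmjd2c against 363.5 ± 12.1 on Luc 4-6. Neither difference passed (-0.06 and 0.08 log2, limma, adjusted p = 0.684 and 0.53), though the Luc sets differed by 0.69. Jak3, the kinase of common gamma chain receptors, fell with both hairpins, by 0.54 ± 0.06 and 0.80 ± 0.06 log2 (limma, adjusted p = 6.43e-05 and 2.19e-06). Neither call held against all 6 Luc arrays, at -1.40 and 0.06 (limma, adjusted p = 0.05 and 0.953). A dimmer Jak3 probe read 0.04 and -0.09. Stat6, which serves interleukin-4 receptors, fell by 0.35 with Jmjd1a and 0.66 with Jmjd2c, and Stat4 by 0.41 and 0.50. A dimmer Stat4 probe read -0.27 and -0.34, neither past the threshold. The Jmjd1a calls of Stat4 and Stat6 were each lost when single arrays were left out, to an adjusted p of up to 0.13 and 0.0841 (limma). For Stat6 these arrays were Luc replicates 1 and 3 and each Jmjd1a array. For Stat4 9 of the 12 arrays ended the call, and its log2 value reached -0.24 without Jmjd1a replicate 2. Stat6 was at -0.91 and -0.09 against all 6 Luc arrays (limma, adjusted p = 0.0579 and 0.881). Stat2, an interferon signal transducer, was above 32 on Luc 4-6 only and at least 2.05-fold lower on Jmjd2c, with a log2 value of -1.04 that was -0.08 with a floor of 64 and -0.52 against all 6 Luc arrays (limma, adjusted p = 0.267). Ptpn11 (Shp2), the phosphatase that couples gp130 to the MAP kinase branch, rose by 0.47 ± 0.09 with Jmjd2c (limma, adjusted p = 0.00135) and read 0.22 with Jmjd1a (adjusted p = 0.0993). Its other probes read 0.35 and 0.08 with Jmjd2c.

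Negative regulators were called in both directions in each knockdown. Of 14 tested, 2 rose and 5 fell with Jmjd1a (median 0.02), where 14.5% and 13.6% of all genes did. With Jmjd2c 5 rose and 2 fell (median 0.08), beside 22.7% and 19.7% of all genes. Socs2 and Socs5, relatives of Socs3, rose in both. Socs2 read 3380.3 ± 133 on Jmjd1a against 2660.4 ± 27.8 on Luc 1-3, and 2067.2 ± 60.3 on Jmjd2c against 1691.1 ± 47.2 on Luc 4-6 (SD, n = 3). That is 0.34 ± 0.05 and 0.29 ± 0.05 log2 (limma, adjusted p = 0.000507 and 0.00104), opposite in sign to the Socs3 differences of the same arrays. Socs2 was at 0.67 with Jmjd1a against all 6 Luc arrays and turned to -0.04 with Jmjd2c (limma, adjusted p = 0.0234 and 0.92). Socs5 rose by 0.40 and 0.42, and against all 6 Luc arrays it was at 0.10 with Jmjd1a (limma, adjusted p = 0.691) and 0.73 with Jmjd2c. With Jmjd2c Socs6 rose by 0.50. Among those that fell with Jmjd1a were the phosphatase Ptpn1 (-0.41), the adaptor Sh2b3 (-0.36) and the SUMO ligase Pias2 (-0.31). A dimmer Ptpn1 probe read -0.06 with Jmjd1a, not past the threshold, and a dimmer Pias2 probe read -0.28, past it. With Jmjd2c the Jak phosphatase Ptpn2 rose by 0.99 from a Luc 4-6 level at the floor, or at least 1.98-fold, and was at 0.10 with a floor of 64 and 0.53 against all 6 Luc arrays (limma, adjusted p = 0.229). Cish, another Socs relative, and the phosphatase Ptpn6 fell with Jmjd2c, by 0.36 and 0.31. The Cish call was lost without Luc replicate 4, 5 or 6 or Jmjd2c replicate 2 or 3 (limma, adjusted p up to 0.108). That of Ptpn6 was lost without Luc replicate 4 or Jmjd2c replicate 3 (up to 0.0816). Neither passed against all 6 Luc arrays, where Cish was at -0.10 and Ptpn6 at -0.20.

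Of 19 tested genes known to respond to LIF or Stat3, 3 rose and 9 fell with Jmjd1a, with a median of -0.16, where 14.5% of all genes rose and 13.6% fell. With Jmjd2c 5 rose and 9 fell, with a median of -0.19, beside 22.7% and 19.7% of all genes. Between the Luc sets 10 were higher in Luc 4-6 and 6 lower, with a median of 0.30, beside 40.3% and 21.6%. Klf4, a pluripotency factor downstream of Stat3, read 1075.7 ± 70.2 on Jmjd1a against 1764.3 ± 117 on Luc 1-3, a fall of 0.71 ± 0.07 log2 (limma, adjusted p = 3.04e-05), and its other probes fell by 0.79 and 1.04. On Jmjd2c it read 1881.1 ± 64.9 against 1952.0 ± 132 on Luc 4-6 (-0.05, adjusted p = 0.626). Tfcp2l1, a direct Stat3 target that supports self-renewal, fell by 0.81 ± 0.08 with Jmjd1a (limma, adjusted p = 1.40e-05) and read -0.19 with Jmjd2c (adjusted p = 0.065).

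These patterns were compared by the test of the difference between the changes, in which 25.9% of all genes were called in either direction. The change with Jmjd1a was lower than that with Jmjd2c by 0.66 ± 0.10 for Klf4 and by 0.62 ± 0.11 for Tfcp2l1 (limma, adjusted p = 0.000888 and 0.00161). Gbx2, a homeobox gene induced by LIF, fell by 0.33 ± 0.05 with Jmjd1a and rose by 1.43 ± 0.05 with Jmjd2c, a difference of -1.77 ± 0.07 (limma, adjusted p = 3.75e-08). Its levels were 4318.0 ± 154 on Luc 1-3, 3426.1 ± 112 on Jmjd1a, 1061.6 ± 22.9 on Luc 4-6 and 2865.9 ± 41.5 on Jmjd2c. The Gbx2 value against all 6 Luc arrays turned to 0.68 with Jmjd1a and was 0.42 with Jmjd2c, neither past the threshold (limma, adjusted p = 0.361 and 0.66).

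Tbx3 and Ccnd3, a T-box factor and a cyclin, fell with both hairpins, Tbx3 by 0.93 and 0.39 and Ccnd3 by 0.72 and 0.57. A dimmer Tbx3 probe read -0.32 with Jmjd1a, not past the threshold, and -0.46 with Jmjd2c. A dimmer Ccnd3 probe read -0.57 with Jmjd1a and -0.27 with Jmjd2c, the latter not past the threshold. Against all 6 Luc arrays Tbx3 with Jmjd2c turned to 0.18. Ier3 and Icam1 were among the largest falls with Jmjd2c, at -1.90 ± 0.13 and -1.19 ± 0.11 (limma, adjusted p = 1.11e-06 and 8.59e-06), from Luc 4-6 levels that were 1.87 and 1.31 log2 above Luc 1-3. Fos fell by 0.63 with Jmjd2c. Bcl2l1, which encodes the survival protein Bcl-xL, rose by 1.10 ± 0.09 and Egr1 by 0.33 with Jmjd2c. With Jmjd1a Myc rose by 0.74 ± 0.15 from a level near the floor, Cebpb by 0.32 and Mcl1, another survival gene, by 0.25. Against all 6 Luc arrays the Jmjd2c values were -0.97 for Ier3, -0.53 for Icam1, -0.19 for Fos, 0.71 for Bcl2l1 and -0.01 for Egr1, and the Jmjd1a values -0.27 for Cebpb and 0.10 for Mcl1. None of these 7 values passed the threshold.

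Of 13 tested substrates and partners of Pim kinases, 1 rose and 2 fell with Jmjd1a, with a median of -0.03, where 14.5% of all genes rose and 13.6% fell. With Jmjd2c 5 rose and 1 fell, with a median of 0.01, beside 22.7% and 19.7%. Pim kinases act on these as proteins, so mRNA levels say nothing of their phosphorylation. Foxo1, a transcription factor, rose by 0.65 ± 0.11 with Jmjd1a (limma, adjusted p = 0.000821). The chemokine receptor Cxcr4 fell by 0.37 with Jmjd1a. Akt1s1 (Pras40), an inhibitor of mTOR complex 1, fell by 0.21 with Jmjd1a, a call lost when any of 9 arrays was left out (limma, adjusted p up to 0.172), and rose by 0.55 ± 0.07 with Jmjd2c. The cell death gene Bad rose by 0.49 with Jmjd2c and the phosphatase gene Cdc25c fell by 0.41, which turned to 0.09 against all 6 Luc arrays. Dimmer Cdc25c probes read -0.48 and -0.04 with Jmjd2c, the latter not past the threshold. Foxo3 rose by 0.38 with Jmjd2c, a call lost without Luc replicate 5 or 6 or Jmjd2c replicate 1 or 3 (limma, adjusted p up to 0.113).

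**Figure D3:**
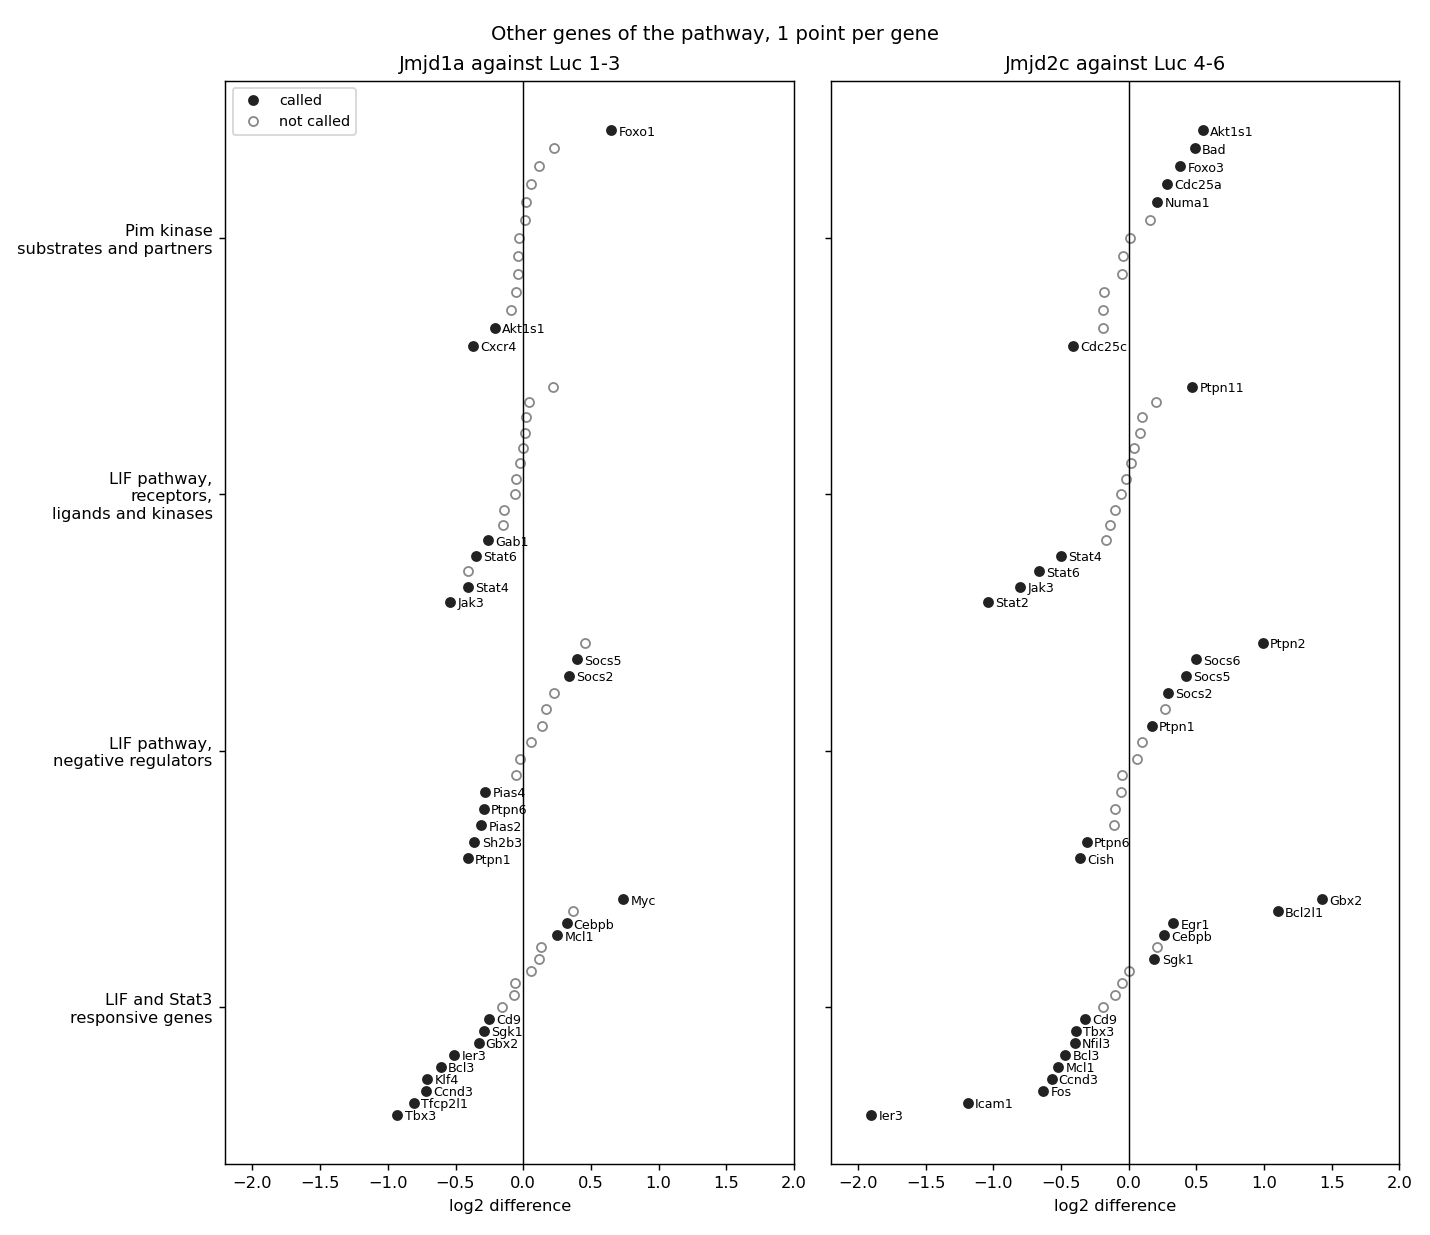
log2 difference (x axis) of the 61 tested pathway genes, 1 point per gene, grouped by list and ordered by value, for Jmjd1a against Luc 1-3 (left) and Jmjd2c against Luc 4-6 (right). Filled, named points passed an adjusted p of 0.05 (limma). In the LIF and Stat3 responsive list Tbx3 (-0.93) is lowest on the left, and Ier3 (-1.90) lowest and Gbx2 (1.43) highest on the right.

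The genes most like Pim2 and Socs3 were ranked by Pearson's r of log2 values over the 12 arrays. The arrays form 4 tight groups, so r describes mainly the order and spacing of 4 levels. For Pim2 probe 7100577 the most alike of 12240 probes were Socs2 (0.991), Ahcy (0.990), Atf7ip (0.988), Vat1l (0.988) and Adk (0.986). Each had its highest mean on Jmjd1a and its lowest on Luc 4-6, with smaller steps than Pim2. For Socs3 they were Phf11d (0.992), Tacc1 (0.992), Aire (0.989), Mpnd (0.988) and Tuba3a (0.988), each highest on Luc 4-6 and lowest on Jmjd1a.

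The ranking depended on whether the difference between the Luc sets was kept. When the Luc mean of its own set was taken from each array, Ptp4a2, Zmat3, Zyx, Unc45b and Ugt8a were most like Pim2 (0.991 to 0.982), and 0 of the 5 were shared with the first ranking. The first 5 then had an r of 0.917 to 0.952, and Socs2, at 0.935, was in place 126. For Socs3 the genes were Tuba3a, Zmym3, Plcd1, Got1l1 and Spsb1 (0.991 to 0.985), and 1 of the 5 was shared, Tuba3a. The first 5 then had an r of 0.959 to 0.991.

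**Figure D4:**
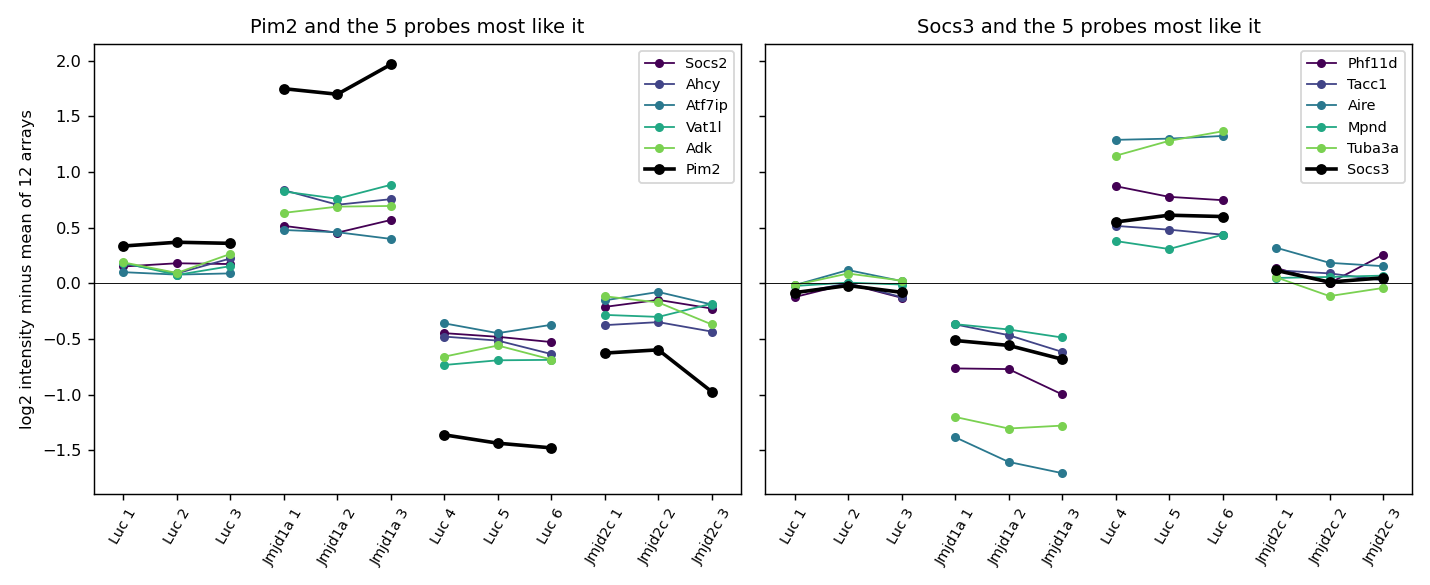
log2 intensity minus the mean over the 12 arrays (y axis) for Pim2 (left) and Socs3 (right), in black, with the 5 probes of highest Pearson's r in colour. Lines join the arrays of 1 group only and carry no order. Pim2 and Socs2 (r = 0.991) are highest on Jmjd1a and lowest on Luc 4-6, and Socs3 and Phf11d (r = 0.992) show the reverse order.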

How the data were processed

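The authors deposited linear intensities, 1 per probe and array, from which a background had been subtracted, as values below 0 show. The authors' scaling and software are not given in the sources used here. Symbols come from the array's annotation: 29542 probes carry 1 symbol, 11 several and 16580 none. Intensities under 32 were set to 32 and put on the log2 scale, with no further normalization, and probes had to exceed 32 on 3 or more of the 12 arrays to be tested, which 15853 did. The test was limma's, version 3.58.1, under R 4.3.3 (lmFit and eBayes, 4 group means in 1 fit, 8 residual degrees of freedom, Benjamini-Hochberg over all tested probes, call at adjusted p under 0.05, two-sided), after a test on simulated data. Where a gene has several tested probes, the one with the highest mean stands for it. Against a group at the floor a fold is a lower bound, and SE and p do not measure that group's spread.

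The 7 genes and the lists were chosen with earlier results of these data known. Of each list, the 3 strongest called genes each way per knockdown are named, and always Jak1, Ptpn11, Klf4, Tfcp2l1 and Gbx2. Of the most alike genes 5 are named, without clone or model names. Alternatives were quantile normalization, floors of 16 and 64, no filter, probes above 32 on all arrays, an intensity trend in eBayes, all 6 Luc arrays as controls, a replicate block and leaving out each array. Promoter windows are RefSeq's for GRCm38.p6, read with Python 3.11.15 and pandas 2.3.3.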

Additional observations from a re-analysis of the deposited data

Results flagged for a closer look

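Of 46 gene and array group combinations checked for 1 array far from the rest, 1 stood out. Chance marks about 1 in 20 where the arrays compared are alike. The check took 6 arrays at a time, and so joined both Luc sets. Where the sets differ, the gap between them widens the range, and an array far from its own set can be missed. Foxo1 read 117.6 on Luc replicate 1, whereas the other 5 Luc arrays lay between 82.9 and 95.0, so that the gap to the nearest array was 0.651 of the whole range.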

How the results depend on the processing

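Of the values of the 6 tested genes under alternatives, 201 stayed within the spread between replicates, 32 moved beyond it and 1 turned. Many of the 201 could not have moved. A change of filter, the intensity trend and the replicate block cannot change a log2 value. A floor cannot move a probe that lies above it on every array. The count of 201 is therefore not by itself a measure of stability. The value that turned was that of Pim2 probe 7100577 with Jmjd2c, at -0.20 against all 6 Luc arrays. That choice of controls also turned Jak3 (0.06), Socs2 (-0.04), Tbx3 (0.18), Egr1 (-0.01) and Cdc25c (0.09) with Jmjd2c, and Cebpb (-0.27) and Gbx2 (0.68) with Jmjd1a. It lowered the probes called with Jmjd2c from 6176 to 1896 and the pathway genes called with Jmjd2c from 32 to 11. That fit has 1 Luc mean, so the difference between the Luc sets counts as spread among the controls. A call lost there is not by itself a smaller difference, and the part of this in the drop was not tested. Without the filter on dim probes 2629 probes were called with Jmjd1a in place of 4040, and 2334 in place of 3844 in the difference between the changes, where more probes enter the adjustment. Quantile normalization moved the share of calls that were higher in Luc 4-6 from 64 to 49.1%. With a replicate block 3887 probes were called with Jmjd1a, and among named genes the Akt1s1 call was lost. Deviations of same-numbered Luc and Jmjd1a arrays correlated at -0.002, 0.014 and 0.108, and 2 of 6 arrays correlated best with their own number, so the numbers were not taken as pairs. Jmjd2c 1-3 and Luc 4-6 share no numbers. Leaving out 1 array kept each count of called probes within 1.5 times its value with all arrays. For the list genes named above, in the knockdown comparisons, 570 values kept their side of the threshold, 54 lost the call, 5 gained it and 7 turned. Most of these genes were picked as the strongest called, so the counts do not describe all 61 tested list genes. Il6st, Pim1 and the dimmer Pim2 probes lie near the floor, where the floor chosen sets the size of a difference, and the Lifr probes lie under it.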
